A study of Rattus norvegicus with 8 samples.

Results

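The genes described here are 10 liver enzymes that build triglyceride: Gpam, Gpat4, Agpat1, Agpat2, Agpat5, Lpin1, Lpin2, Dgat1, Dgat2 and Mogat2. They were chosen by name and found on the array through the RefSeq accession of each probe. All 10 had a probe, 14 probes in all, and all 10 passed the filter on dim probes. The series as a whole gave 24209 genes with a test.

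Liver RNA came from male Wistar/ST rats, and every rat, controls included, received a high-fat diet with high-fructose water. The Eucommia group (4 arrays) was given leaf extract of Eucommia ulmoides, the hardy rubber tree of East Asia, to drink for 5 weeks. The Control group (4 arrays) had the same diet without the extract. The age of the rats, the dose of the extract and any pooling were not given in the sources used here. The labels number 4 samples per group, but nothing else says that each array is a separate rat, and the spread behind each p-value may be technical.

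In the glycerol phosphate pathway, a GPAT enzyme adds the first fatty acid to glycerol phosphate, an AGPAT adds the second to make phosphatidate, a lipin removes the phosphate to leave diacylglycerol, and a DGAT adds the last fatty acid. A MOGAT enzyme reaches diacylglycerol by a shorter route, from monoacylglycerol, and is best known from the absorbing cells of the intestine. In liver the finished triglyceride is stored in droplets or secreted in lipoproteins, and phosphatidate and diacylglycerol also feed phospholipid synthesis. The comparison asks which steps of this route differed in RNA level between rats with and without the leaf extract.

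Each value below is a log2 signal after subtraction of that array's 75th percentile, so that 0 is the signal at that percentile, and each change is Eucommia minus Control on the log2 scale. Changes were tested with limma across all 24209 genes, and a gene passed where its Benjamini-Hochberg adjusted p was under 0.05. A spot was called well above background by the scanner software. The share of such spots ran from 69.3% to 71.9% on the Eucommia arrays and from 58.9% to 61.5% on the Control arrays. The lowest signal well above background was 5.69 to 6.05 raw units on the Eucommia arrays, against 11.2 to 13.7 on the Control arrays. All Eucommia arrays shared a slide and all Control arrays shared another, and each slide had its own scan session. Slide and scan session therefore cannot be told apart from the treatment. Hepatocyte markers were bright in both groups: all 9 passed the filter, and Alb, the serum albumin gene, averaged 9.79 ± 0.09 on Eucommia and 9.96 ± 0.11 on Control arrays (SD, n = 4 each). That is the brightest Alb probe, with a change of -0.17, and the other Alb probes gave -0.42 and -0.22. Their adjusted p by limma was 0.0139 and 0.142 with every probe tested.

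Of the 10 genes, 1 was higher (Mogat2) and 1 was lower (Agpat5) in the Eucommia group, and 8 did not pass. Over all genes tested 24.7% passed, 18.6% higher and 6.11% lower, so 2 of 10 is near the background share. All 10 were well above background on all 8 arrays, and of such genes 11.8% were higher and 6.86% lower. The same 2 of the 10 had groups that did not overlap, which held for 28.6% of all genes. Higher genes were most frequent among dim ones: 40.3% were higher among genes with a mean signal under -4 and 2.27% among those over 4, while lower genes made up 5.05% and 5.16%. The share of higher genes among those called was 75.3% and depended on the scaling and on the filter. It was 59.6% with quantile normalization, 60.5% with normexp background correction followed by quantile normalization, 42.7% without the filter on dim probes, 63.2% with probes above background on all 8 arrays and 32.4% with median centring, which moved the median change of all genes to -0.24, against 0.02 as reported. The median change of the 10 genes was -0.03.

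**Figure D1:**
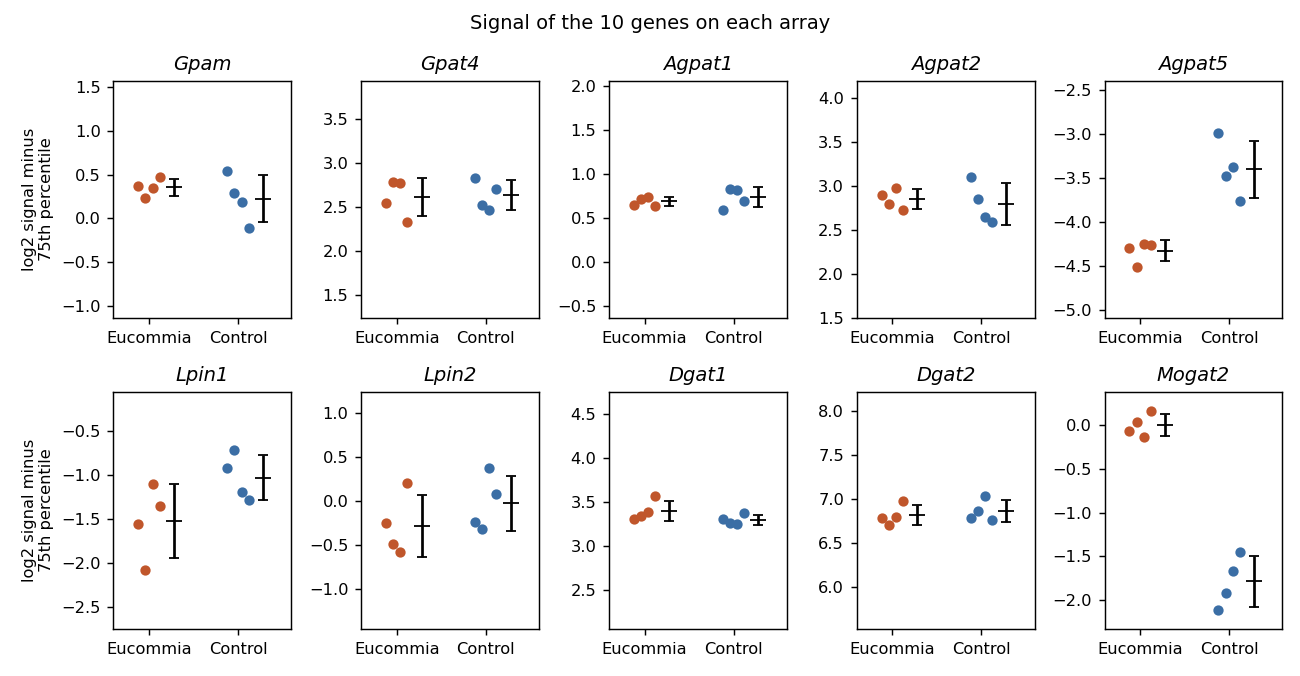
Log2 signal minus the array's 75th percentile for each of the 10 genes, with 1 point per array (4 Eucommia, 4 Control) and the mean and SD beside the points. Each panel spans the same height, and the groups stand apart for Mogat2, higher on the Eucommia arrays, and Agpat5, lower on them, while they overlap in the other 8 panels.

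The GPAT step comes first. Gpam encodes the mitochondrial glycerol-3-phosphate acyltransferase, and Gpat4 one in the endoplasmic reticulum. Gpam had values of 0.37, 0.23, 0.34 and 0.47 on the Eucommia arrays, against 0.53, 0.28, 0.18 and -0.11 on the Control arrays. The Eucommia values all lie inside the Control range. The change of Gpam was 0.13 ± 0.14 (SE; adjusted p by limma = 0.552), and its 95% interval corresponds to 0.88 to 1.36 times the Control level. Gpat4 ran from 2.34 to 2.79 on Eucommia arrays and from 2.47 to 2.84 on Control arrays, with a change of -0.02 ± 0.13 (SE; adjusted p by limma = 0.921). Its sign turned under 8 of 20 alternatives, 3 of them with 1 array left out. The change was at most 0.078 over the 20 alternatives and at most 0.069 with 1 array left out.

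RefSeq promoter sequences were at hand for 5 of the 10 genes (Gpam, Agpat1, Agpat2, Lpin1 and Lpin2). Those of Gpam and Lpin1 are shown because both genes are textbook targets of the lipid-sensing SREBP factors, which bind beside the CCAAT-box factor NF-Y. Each runs 5′ to 3′ over 250 bases before and 50 after the start given by RefSeq (GRCr8, minus strand, chr1:264175862-264176161 for Gpam and chr6:45108893-45109192 for Lpin1), and capitals mark a CCAAT box on either strand.
Gpam promoter: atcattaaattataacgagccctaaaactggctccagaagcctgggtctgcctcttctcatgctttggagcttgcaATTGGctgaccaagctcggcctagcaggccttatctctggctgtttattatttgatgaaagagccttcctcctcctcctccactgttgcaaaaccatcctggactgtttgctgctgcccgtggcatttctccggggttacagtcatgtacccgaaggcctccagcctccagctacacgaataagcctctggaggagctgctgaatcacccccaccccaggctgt
Lpin1 promoter: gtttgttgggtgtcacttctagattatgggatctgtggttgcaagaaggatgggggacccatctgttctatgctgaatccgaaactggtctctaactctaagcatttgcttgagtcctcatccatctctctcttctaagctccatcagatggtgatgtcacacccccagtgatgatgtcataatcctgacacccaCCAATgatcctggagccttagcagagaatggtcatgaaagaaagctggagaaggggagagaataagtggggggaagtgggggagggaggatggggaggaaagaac
The box starts 174 bases before the start in Gpam, as its reverse complement, and 55 bases before it in Lpin1. The letters CCAAT, on either strand, were in 3 of the 5 promoters (Gpam, Lpin1 and Agpat1) and in 37.5% of 33469 promoters of the same length. An E box (CACGTG) was in 0 of the 5 and in 6.42% of all. A sterol response element (TCACNCCAC) was in 0 of the 5 and in 1.12% of all, and a GC box (GGGCGG) in 2 of the 5 (Agpat1 and Agpat2) and 33.1% of all. No other motif was searched, and a match describes letters only.

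At the AGPAT step, Agpat5 fell while Agpat1 and Agpat2 did not pass. Agpat5 encodes an acyltransferase found in mitochondria, whereas Agpat1 and Agpat2 encode the classical enzymes of the endoplasmic reticulum, and loss of human AGPAT2 causes a lack of body fat. Agpat5 had values of -4.30, -4.51, -4.25 and -4.26 on the Eucommia arrays, against -2.98, -3.48, -3.37 and -3.76 on the Control arrays. Every Eucommia value was below every Control value. The change was -0.93 ± 0.16 (SE; adjusted p by limma = 0.00254; lower on 4 of 4 Eucommia arrays), which is 1.90-fold lower. Groups that did not overlap, with the Eucommia group lower, made up 8.56% of all genes.

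Agpat5 was a dim probe, although it was well above background on all 8 arrays. Its raw signal was 9.99 to 12.2 units on the Eucommia arrays and 19.1 to 35.3 units on the Control arrays. The Eucommia signals thus reach below 11.2 units, the lowest signal that was well above background on any Control array. They were 1.76 to 2.06 times the limit of their own arrays, and the Control signals were 1.40 to 2.72 times theirs. The scanner software's error of a spot was 15.4% to 16.9% of the signal for Agpat5 on Eucommia arrays and 13.0% to 18.9% on Control arrays. Of the 6673 genes with a mean signal from -4 to -2, 6.76% were lower and 28.8% higher, and 82 changed downward by at least as much as Agpat5. With normexp background correction, which adds the same offset to every signal and so shrinks changes of dim ones most, the change was -0.26. Its adjusted p by limma was 0.0149, the highest over 20 alternatives, which reached down to 0.000959. The part of the slides' different background limits in the change of Agpat5 was not tested.

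Agpat1 ran from 0.64 to 0.74 on Eucommia arrays and from 0.59 to 0.82 on Control arrays, with a change of -0.05 ± 0.09 (SE; adjusted p by limma = 0.748). The interval of this change is 0.84 to 1.11 times the Control level. Agpat2 ran from 2.73 to 2.98 on Eucommia and from 2.59 to 3.11 on Control arrays, with a change of 0.05 ± 0.13 (SE; adjusted p by limma = 0.805). A difference between genes on the same array takes out a shift shared by all its signals, but not one that varies with signal. Agpat1 and Agpat2 are far brighter than Agpat5. Set against Agpat1 in this way, Agpat5 changed by -0.88 (exact permutation test, p = 0.0286). Set against Agpat2 it changed by -0.98 (exact permutation test, p = 0.0286). Both are 2-sided, and 0.0286 is the smallest p that 4 against 4 arrays can give. It stays at 0.0286 after adjustment over the 3 such tests, which were chosen after the values were seen.

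Values of the lipins varied more between the Eucommia arrays than those of the other 8 genes, with an SD of 0.42 for Lpin1 and 0.35 for Lpin2. Lpin1 encodes a phosphatidate phosphatase that also acts as a transcriptional coactivator in liver, and Lpin2 a second enzyme of the family that is prominent in liver. Lpin1 had values of -1.56, -2.08, -1.10 and -1.35 on the Eucommia arrays, against -0.92, -0.72, -1.19 and -1.29 on the Control arrays. The groups overlap: Eucommia replicate 3 lies above 2 Control arrays. The change of Lpin1 was -0.49 ± 0.22 (SE; adjusted p by limma = 0.141), with an unadjusted p of 0.0506. Its 95% interval ran from -0.99 to 0.0016, so its lower end is 0.50 times the Control level. Lpin1 did not pass in any of the 8 fits that left out 1 array (adjusted p 0.0737 to 0.288), and it passed with median centring (-0.75, adjusted p = 0.0223), the scaling that lowers all changes.

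Lpin2 had values of -0.25, -0.49, -0.58 and 0.20 on the Eucommia arrays, against -0.24, -0.32, 0.37 and 0.08 on the Control arrays. Eucommia replicate 4 stands above the other Eucommia arrays, and the groups overlap. The change was -0.25 ± 0.21 (SE; adjusted p by limma = 0.438), and the other Lpin2 probe gave -0.21. Both lipins thus had negative values that did not pass.

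Neither gene for the last step passed. Dgat1 and Dgat2 encode unrelated diacylglycerol acyltransferases, and Dgat2 is the one tied to newly made fatty acids in liver. The brightest Dgat2 probe had values of 6.79, 6.71, 6.80 and 6.98 on the Eucommia arrays, against 6.79, 6.87, 7.04 and 6.76 on the Control arrays. The groups overlap along almost their whole range. The change was -0.04 ± 0.10 (SE; adjusted p by limma = 0.800), and its 95% interval corresponds to 0.83 to 1.14 times the Control level. The other Dgat2 probes gave -0.10 and -0.17 (adjusted p by limma 0.569 and 0.229 with every probe tested). The brightest probe turned in sign with quantile normalization (0.034), cyclic loess (0.032) and normexp (0.016).

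Dgat1 ran from 3.30 to 3.57 on Eucommia arrays and from 3.24 to 3.37 on Control arrays. Its change was 0.10 ± 0.09 (SE; adjusted p by limma = 0.477), with an interval of 0.93 to 1.24 times the Control level, and its other probe gave 0.14. Dgat1 passed under 1 of 20 alternatives, normexp background correction (0.23, adjusted p = 0.0149), and had -0.16 with median centring. The adjusted p over these alternatives ran up to 0.749.

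**Figure D2:**
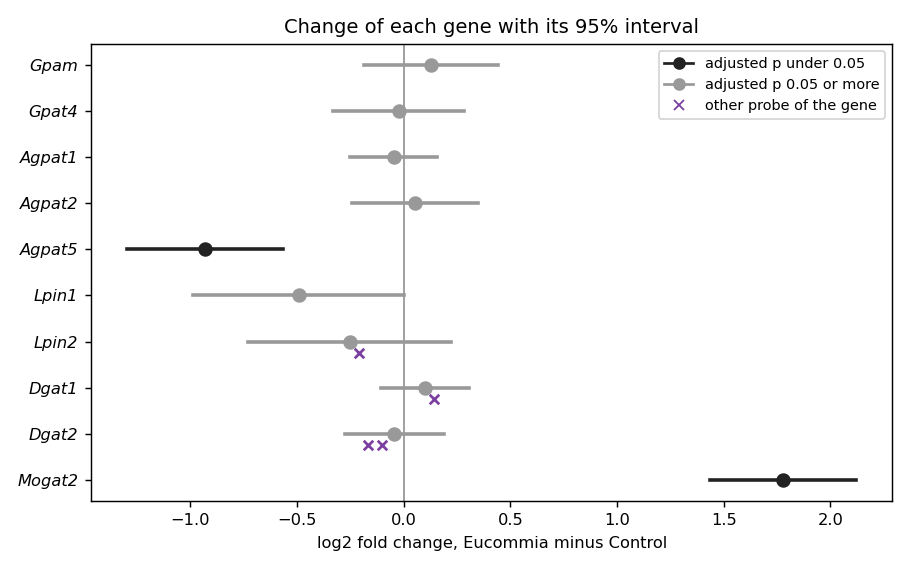
Log2 fold change of each gene, Eucommia minus Control, with its 95% interval from limma (horizontal bar), and crosses for the other probes of Lpin2, Dgat1 and Dgat2. The intervals of Mogat2 (1.44 to 2.12) and Agpat5 (-1.29 to -0.56) lie away from 0, and the other 8 include 0.

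Mogat2, the monoacylglycerol acyltransferase of the DGAT2 family, showed the only rise among the 10 genes. It had values of -0.07, 0.03, -0.14 and 0.16 on the Eucommia arrays, against -2.11, -1.91, -1.66 and -1.45 on the Control arrays. The groups are far apart, with a gap wider than the range of either. The change was 1.78 ± 0.15 (SE; adjusted p by limma = 3.63e-05; higher on 4 of 4 Eucommia arrays), a 3.43-fold difference (95% interval 2.71 to 4.35). Groups that did not overlap, with the Eucommia group higher, made up 20% of all genes.

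Mogat2 was well above background on every array. Its raw signal was 208 to 245 units on the Eucommia arrays and 60.4 to 95.2 units on the Control arrays, which is 35.0 to 40.8 and 4.99 to 6.96 times the limit of the arrays. Of the 5292 genes with a mean signal from -2 to 0, 16.1% were higher, and 115 (2.17%) changed upward by at least as much. Mogat2 passed under all 20 alternatives tried, with changes from 1.28 (normexp) to 1.89 (without Control replicate 4).

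Dgat2 is the next protein-coding gene to Mogat2 on one side in the RefSeq table, and the array gives it no such rise. Set against the brightest Dgat2 probe on the same array, Mogat2 changed by 1.82 (exact permutation test, p = 0.0286, the smallest that 4 against 4 arrays can give). Uvrag, an autophagy gene beyond Dgat2, had -0.45 ± 0.09 (SE; adjusted p by limma = 0.00459), and Serpinh1, a collagen chaperone on the other side, 0.03 ± 0.18 (SE; adjusted p by limma = 0.929). The RefSeq table lists 2 long non-coding RNA loci that overlap Mogat2. The array had no probe named for either.

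The 3 genes whose values followed Mogat2 most closely over the 8 arrays, among 9953 with a symbol, were Hs3st2, Or10p22 and Or5ap2, with Pearson's r of 0.996. Hs3st2 encodes a heparan sulfate sulfotransferase, and the other two are odorant receptor genes. This r is a description: the 8 points share 2 groups and 2 slides. Hs3st2 and Or5ap2 were well above background on 0 Control arrays, and Or10p22, at 4 of 4, changed by 1.36 ± 0.11 (SE; adjusted p by limma = 3.13e-05).

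**Figure D3:**
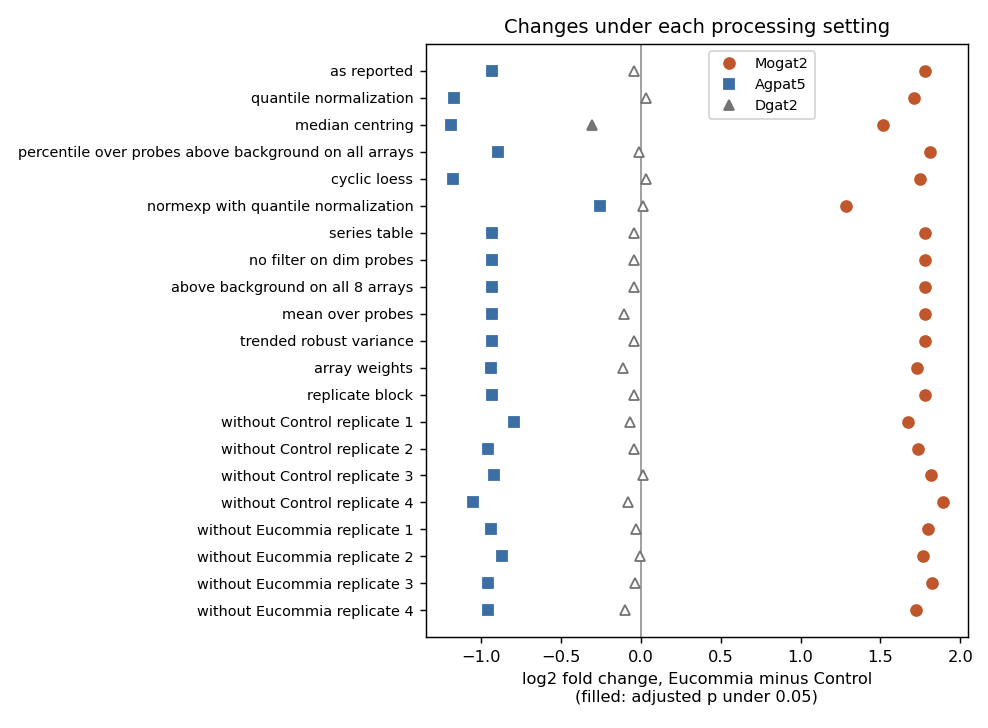
Log2 fold change, Eucommia minus Control, of Mogat2, Agpat5 and Dgat2 as reported and under 20 other ways of processing, with filled symbols where the adjusted p is under 0.05. Mogat2 stays between 1.28 and 1.89 and Agpat5 between -1.19 and -0.26, both filled throughout, while Dgat2 stays near 0 and is filled with median centring alone.

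Markers of intestinal absorbing cells and of other tissues were read on the same arrays. Of 10 enterocyte markers 7 had a probe, 4 passed the filter and 0 passed by limma (0 also at an unadjusted p under 0.05). Among all genes 24.7% passed, and 8669 of 24209 had an unadjusted p under 0.05. Their summed level, as linear signal over the 75th percentile, was 619 to 867 on Eucommia arrays and 722 to 930 on Control arrays. That sum is nearly all Apoa4, an apolipoprotein that liver also makes. Alpi and Rbp2 were well above background on 0 arrays. Cdh17, an intestinal cadherin, ran from -0.05 to 3.01 on Eucommia arrays and from -3.15 to 2.71 on Control arrays, a wide spread within each group. Its change was 1.75 ± 1.22 (log2, SE), and Fabp2 had 0.32, Apoa4 -0.13 and Cdx2 -0.16. Vil1 did not pass the filter, with a change of 0.55, and was well above background on 3 Eucommia and 0 Control arrays.

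Single markers of some other tissues were higher on the Eucommia arrays. Among all genes 18.6% were higher and 6.11% lower, and the marker counts here and below are to be read against these shares. In the signal range from -4 to -2, where Cel and Cdh5 lie, 28.8% were higher. The share was 5.48% from 0 to 2, where Ctrb1 and Mb lie, and 2.1% from 2 to 4, where Col1a1 lies. Among pancreatic acinar genes 2 of 5 tested were higher: Ctrb1, a chymotrypsinogen gene, by 1.79 ± 0.15, and Cel, a lipase gene, by 0.62 ± 0.13 (log2, SE), and Prss1 was well above background on 0 arrays. With normexp Cel had 0.15 and did not pass (adjusted p by limma = 0.0521). The summed level of the acinar list was 2.62 to 3.75 on Eucommia and 1.58 to 1.92 on Control arrays. The muscle gene Mb rose by 0.97 ± 0.09 (log2, SE), with the muscle sum at 1.89 to 2.07 on Eucommia and 0.957 to 1.23 on Control arrays, while the other 6 muscle genes with a probe were well above background on 0 arrays. Of 4 endothelial genes tested 1 was higher, Cdh5, by 1.01 ± 0.09 (log2, SE), which was 0.40 with normexp, while Kdr (-0.26) and Lyve1 (-0.17) did not pass. Of 7 stellate cell genes 1 was higher, Col1a1, by 0.83 ± 0.16 (log2, SE), though its other probe gave -0.21 and the mean over probes did not pass (0.31, adjusted p by limma = 0.0828). The summed level was 65.6 to 76.4 (Eucommia) and 73.5 to 89.2 (Control) for the endothelial list, and 28.5 to 36.5 (Eucommia) and 20.4 to 30.8 (Control) for the stellate list. The endothelial sum is nearly all Kdr, which averaged 6.01 on Eucommia and 6.28 on Control arrays (log2).

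Adipocyte and hepatocyte lists had 1 lower gene each, Cfd of 4 tested (-0.49 ± 0.15, SE) and Tf of 9 (-0.55 ± 0.11, SE). The adipocyte sum was 157 to 211 on Eucommia and 194 to 207 on Control arrays, with Adipoq and Lep well above background on 0 arrays. That sum is nearly all Pck1, which averaged 7.42 on Eucommia and 7.59 on Control arrays (log2), and cannot be read as adipocyte content. The hepatocyte sum was 3654 to 4337 on Eucommia and 4267 to 4727 on Control arrays. The call of Cfd ended on leaving out any 1 of Control replicates 1, 2 and 4 and Eucommia replicates 1, 2 and 3 (limma, adjusted p up to 0.110), and also with quantile normalization (0.0580), a percentile over the probes detected on every array (0.0561) and cyclic loess (0.0569). Of 8 macrophage markers 0 passed by limma (2 at an unadjusted p under 0.05, against 8669 of 24209 among all genes). All 8 had negative changes, from -1.10 (Marco) to -0.15 (Csf1r). The macrophage sums were 56.2 to 89.2 (Eucommia) and 73.7 to 119 (Control). The part of these cells in the changes of Mogat2 and Agpat5 was not tested, and in bulk liver fewer cells of a type and less RNA per cell cannot be told apart.

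Genes around the 10 enzymes were read from 6 lists. Of 78 genes tested in all, 3 were higher and 7 lower, with a median change of -0.05. These 10 of 78 stand beside 24.7% called among all genes (18.6% higher, 6.11% lower), and the list counts below are to be read against the same shares. With every probe tested on its own, 13 of the 78 had a probe that passed. Among other glycerolipid acyltransferases 2 of 10 were lower and 0 higher (median -0.23). Agpat3, a further lysophosphatidate acyltransferase, fell by 0.49 on the log2 scale by its brightest probe (SE 0.14, adjusted p by limma = 0.0335), while its other probe gave -0.02. Lpcat3, which remodels phosphatidylcholine, fell by 0.27 (SE 0.08, adjusted p by limma = 0.0353). Lpgat1 (-0.30) and Abhd5 (-0.47) did not pass.

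In the supply of glycerol phosphate and acyl-CoA, 1 of 14 genes was higher and 2 were lower (median -0.08), and the 2 glycerol phosphate dehydrogenases went opposite ways. Gpd1, the cytosolic enzyme that makes glycerol phosphate, had values of 0.50, 0.93, 0.92 and 0.19 on the Eucommia arrays, against 1.43, 1.65, 2.02 and 0.84 on the Control arrays. The groups overlap at Control replicate 4, and the change was -0.85 ± 0.26 (SE; adjusted p by limma = 0.0448). Gpd2, the mitochondrial enzyme that uses glycerol phosphate, had 0.30, 0.31, 0.36 and 0.26 on the Eucommia arrays, against -0.15, 0.16, -0.29 and -0.55 on the Control arrays. The groups do not overlap, and the change was 0.52 ± 0.14 (SE; adjusted p by limma = 0.0296). Fabp1, a fatty acid carrier of liver cells, fell by 0.52 (log2, SE 0.10; adjusted p by limma = 0.00508), and Acsl3 (-0.63) and Acsl4 (0.19), acyl-CoA synthetase genes, did not pass.

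The largest change in these lists was at the branch from phosphatidate to phospholipids, where 2 of 18 genes were higher and 1 was lower (median -0.01). Cds2, which turns phosphatidate into CDP-diacylglycerol, had values of -0.61, -0.62, -0.49 and -0.56 on the Eucommia arrays, against -3.54, -2.90, -3.60 and -3.64 on the Control arrays. The groups are far apart, with a change of 2.85 ± 0.16 (SE; adjusted p by limma = 5.23e-06) that was 1.31 with normexp. Its relative Cds1 had 0.67 ± 0.23 (SE) and did not pass (adjusted p by limma = 0.0691). Dgkg, a diacylglycerol kinase gene, rose by 0.53 ± 0.14 (SE; adjusted p by limma = 0.0211), and Ptpmt1, a phosphatase of cardiolipin synthesis, had -0.38 ± 0.10 (SE; adjusted p by limma = 0.0249). Selenoi (-0.23) did not pass.

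Few regulators passed. In the list of lipin regulators and other phosphatidate phosphatases 1 of 10 was lower, Nr3c1, the glucocorticoid receptor (-0.45 ± 0.14 SE, adjusted p by limma = 0.0451), with a list median of -0.16, and Plpp6 (-0.20) and Plpp7 (0.24) did not pass. Among lipogenic transcription factors 1 of 12 was lower, Pparg, a receptor that promotes fat storage (-0.48 ± 0.12 SE, adjusted p by limma = 0.0149), with a list median of -0.03, and Insig1 (-0.51) and Usf1 (-0.18) did not pass. Srebf2, an SREBP gene, had 0.11 by its brightest probe and did not pass. Its dimmer probe gave 0.88 (adjusted p by limma = 0.00112 with every probe tested). That probe was well above background on 4 Eucommia and 0 Control arrays. In triglyceride storage, release and secretion 0 of 14 genes passed by limma, with a median of 0.03. At an unadjusted p under 0.05 there were 3, against 8669 of 24209 among all genes. Pnpla2, a triglyceride lipase, was at 0.36 and Plin5, a droplet protein, at 0.54. Dimmer probes of 2 of these genes passed when every probe was tested: 1 of the other 2 probes of Fitm2, a droplet formation gene, gave 0.84 (adjusted p by limma = 0.000311), against -0.04 by its brightest probe, and 1 of the other 4 probes of Apob, the lipoprotein backbone, gave -0.48 (adjusted p by limma = 0.00883), against 0.04 by its brightest.

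Cds2, Fabp1 and Pparg passed in all 8 fits that left out 1 array, and the other 7 calls did not. The call of Agpat3 ended on leaving out any 1 of Control replicates 1 to 3 and Eucommia replicate 1 (limma, adjusted p up to 0.0809). That of Lpcat3 ended on leaving out any 1 of Control replicates 1, 2 and 4 and Eucommia replicates 1 to 3 (up to 0.0922). Gpd1 passed without Control replicate 4 alone (others up to 0.111), and Gpd2 without Control replicate 1 or 2 alone (others up to 0.0732). Arrays whose removal ended the call of Dgkg were Eucommia replicates 1 and 4 and Control replicates 2 and 3 (up to 0.0600), and for Ptpmt1 Eucommia replicates 1 and 2 and Control replicates 2 to 4 (up to 0.0770). For Nr3c1 they were all 4 Eucommia arrays and Control replicates 2 and 3 (up to 0.102). Quantile normalization and cyclic loess each ended the calls of Agpat3, Lpcat3, Gpd1, Nr3c1 and Dgkg, and of these a percentile taken over the probes detected on every array ended all but Dgkg. Median centring ended the calls of Gpd2 (0.26, adjusted p by limma = 0.146) and Dgkg (0.27), normexp that of Dgkg (0.11), and the mean over probes that of Agpat3 (-0.26). Over the 20 alternatives Fabp1 ran from -0.78 to -0.34, Pparg from -0.74 to -0.26 and Dgkg from 0.11 to 0.64.

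**Figure D4:**
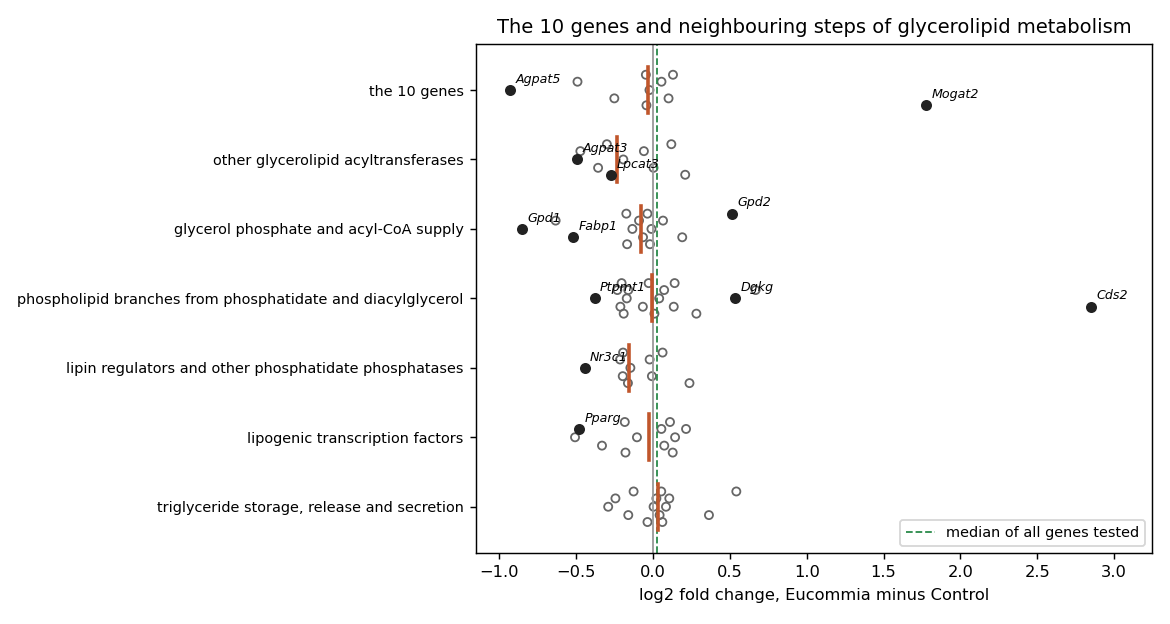
Log2 fold change, Eucommia minus Control, of the 10 genes (top row) and of the tested genes of 6 neighbouring lists, with 1 point per gene, filled and named where the adjusted p is under 0.05, the row's median as a vertical bar, and the median of all genes (0.02) as a dashed line. Mogat2 at 1.78 and Cds2 at 2.85 stand far right of all other points, and Agpat5 at -0.93 is the leftmost.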

How the data were processed

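The deposited scanner files hold intensity values from Agilent Feature Extraction 10.1.1.1, 1 colour (Cy3), 500 ng of RNA per array, per the file headers and the labels' protocols. The processed signal was background-subtracted and detrended within each array by the authors' software and not normalized between arrays. Deposited beside the intensities are flags for control, outlier and well-above-background spots. The deposited series table equalled the processed signal at 100% of spots.

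Control and outlier spots were left out and spots of a probe averaged on the log2 scale. The 75th percentile was taken over non-control spots. Probes well above background on at least 4 of 8 arrays were kept (27717 of 41012). Accessions were matched to RefSeq symbols of GRCr8, which named 16336 probes (39.8%), and unnamed probes were grouped by accession. A gene is its brightest probe. No array was dropped or imputed for any of the 10 genes. Tests used limma 3.58.1 in R 4.3.3, checked on simulated data, and exact permutation in SciPy 1.17.1. The number of arrays limits the precision.

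The members, lists and rules were chosen with earlier results of these data known. Every member was named, with up to 4 passing genes and 2 others of each list by p, and of each marker list up to 3 of its brightest genes and those past the threshold. Uvrag, Serpinh1, Fitm2, Apob, Srebf2 and Lpin3 were named after the values were seen, the first pair as neighbours. Markers beyond the rule were named for their values. Alternatives were other scalings, normexp (offset 50, on the median spot signal, then quantile), the series table, other filters, the mean over probes, every probe, trended robust variance, array weights, a replicate block and each array left out with the same genes tested. A slide block was not run, since each slide holds 1 group.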

Additional observations from a re-analysis of the deposited data

Results flagged for a closer look

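In 6 of 118 groups of 4 arrays looked at, 1 array lay far from the other 3 by Dixon's test, and chance alone gives about 5% of groups. None of the 28 groups of the 10 enzymes' probes was among them. On the Eucommia arrays the lowest value of Agpat3 was 2.59 and that of Usf1 1.07, and the highest of Kdr, an endothelial receptor gene, was 6.16. On the Control arrays the highest value of Cds2 was -2.90 and that of Nr3c1 3.43, and the lowest of Alb was 9.79. All are log2 signals relative to the 75th percentile.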

How the results depend on the processing

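Mogat2 and Agpat5 kept their direction and passed under all 20 alternatives. The count of called enzymes was 2 except with median centring, where it was 5 and Agpat1, Lpin1 and Dgat2 also passed as lower, and with normexp (3). Signs of values that did not pass turned as follows. Median centring gave Gpam -0.13, Agpat2 -0.21 and Dgat1 -0.16. Gpat4 had 0.013 with quantile normalization, 0.011 with a percentile taken over the probes detected on every array, 0.022 with cyclic loess, 0.035 with normexp and 0.078 with array weights. Dgat2 had 0.034 with quantile normalization, 0.032 with cyclic loess and 0.016 with normexp, and Agpat1 had 0.071 with normexp. The other Col1a1 probe gave -0.21. Without 1 array, Gpat4 ran from -0.083 to 0.069, Dgat2 from -0.10 to 0.016 and Agpat2 from -0.016 to 0.16.

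The count of all called genes, 5987 as reported, was 11409 with median centring, 12285 without the filter on dim probes and 3578 with probes above background on all 8 arrays, where fewer genes were tested. It ran from 4818 to 5600 without 1 array. Of the neighbouring lists 10 genes were called as reported, 33 with median centring, 5 with cyclic loess, 17 with normexp and 4 to 9 without 1 array. The cause of these shifts was not tested. With the replicate number as a block 5003 genes, 2 of the 10 enzymes and 6 list genes were called, and Gpd2 (adjusted p by limma 0.0533), Ptpmt1 (0.0705), Nr3c1 (0.0932), Lpcat3 (0.118) and the marker Cfd (0.0708) did not pass. The numbers did not pair the samples, since deviations of same-numbered arrays correlated at -0.10 to -0.03. Signals near the background limit, such as those of Agpat5, bound what these arrays can measure.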
